A study of Mus musculus with 42 samples.

Results

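The Zfp genes examined here are the protein-coding genes of the mouse annotation GENCODE vM21 whose symbol is Zfp followed by a digit and that lie on chromosomes 2, 7, 10, 13 and 17. There are 208 of them among 21938 protein-coding genes: 92 on chromosome 7, 46 on chromosome 17, 36 on chromosome 13, 28 on chromosome 2 and 6 on chromosome 10. They were chosen by name and place, with earlier results of these data known. Their association with lamin B1 (LMNB1) was read from chromatin immunoprecipitation sequencing (ChIP-seq) of livers from 14 wild-type C57Bl/6 mice, 2 at each of 7 time points. Non-synchronized (NS) mice were killed at noon before any food restriction. All other mice were fasted for a day, refed from circadian time CT0 when the lights came on, and killed at CT0, CT6, CT12, CT18, CT24 or CT30, where the number is the hours after refeeding began. The labels call the mice female in one field and male in another, and give no age. Each library is a list of lamina-associated domains (LADs), the intervals that the authors called as enriched for LMNB1, on genome build mm10. A gene was taken to be in a LAD of a library when its start site lay inside one of these intervals. Replicates 1 and 2 of a time point are separate mice. A LAD call is made on the nuclei of a whole liver sample, so a contact in fewer nuclei and a weaker contact in all cannot be told apart.

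Zfp is the mouse symbol for zinc finger proteins. Most of these proteins bind DNA through a row of C2H2 zinc fingers, each a short loop held by a zinc ion between cysteines and histidines. Many also carry a KRAB domain at the amino end, which recruits TRIM28 and, through it, histone methylation and heterochromatin proteins that silence transposable elements and some genes. The family has grown by tandem duplication, so that its genes stand in clusters of related copies. LADs are mostly gene-poor, compact chromatin at the nuclear lamina, and in mouse they often hold large families of sensory receptor genes such as the vomeronasal receptors Vmn1r and Vmn2r. The hepatocyte genes Alb, Apoa1, Apob, Apoc3, Ttr, Fgb, Tat, Cyp7a1 and Hnf4a were outside LADs in all 14 libraries (0 of 9 genes), as were 83.35% of all genes, so the intervals hardly check the tissue label.

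A run of at least 3 Zfp genes with consecutive start sites at most 500 kb apart is called a cluster here, and is named by its first and last member. This gave 19 clusters with 164 genes, and left 44 single genes. From the annotated coding sequences the 208 proteins had a median of 11 C2H2 fingers (0 to 33), and 111 of them, 53.37%, matched a short pattern of the KRAB A box, a search that misses diverged KRAB domains. Clustered genes matched it more often than single genes, 60.98% against 25%. The promoters of the genes on which the results turn are shown first, as the 100 bases before the start site (RefSeq, GRCm38.p6), written 5′ to 3′ with every CG dinucleotide in capitals. Zfp551 and Zfp606 lay near the border of a LAD that ended past Zfp606 in both mice at some CTs and short of it in both at others.
Zfp551, chr7:12422492-12422591, minus strand: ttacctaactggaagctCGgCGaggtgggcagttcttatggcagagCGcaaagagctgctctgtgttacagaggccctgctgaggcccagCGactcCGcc
Zfp606, chr7:12478205-12478304, plus strand: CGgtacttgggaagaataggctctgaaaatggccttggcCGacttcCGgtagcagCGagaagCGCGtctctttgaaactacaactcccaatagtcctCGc
Zfp141, Zfp977, Zfp976 and Zfp975 were in LADs in the same 3 libraries.
Zfp141, chr7:42505754-42505853, minus strand: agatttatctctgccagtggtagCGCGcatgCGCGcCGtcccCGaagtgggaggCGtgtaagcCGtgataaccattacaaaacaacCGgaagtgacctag
Zfp977, chr7:42592546-42592645, minus strand: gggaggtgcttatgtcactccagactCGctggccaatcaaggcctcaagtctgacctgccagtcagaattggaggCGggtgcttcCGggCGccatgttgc
Zfp976, chr7:42642605-42642704, minus strand: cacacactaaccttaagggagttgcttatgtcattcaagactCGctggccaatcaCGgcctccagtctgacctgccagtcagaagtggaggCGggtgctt
Zfp975, chr7:42692719-42692818, minus strand: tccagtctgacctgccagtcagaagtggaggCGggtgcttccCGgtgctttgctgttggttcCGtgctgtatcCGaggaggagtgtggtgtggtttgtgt
These windows held 5, 7, 9, 4, 3 and 4 CG in the order shown. Of 27025 RefSeq promoters, 78.59% had at least 1 CG in the same window, with a median of 3. In the 250 bases before the start, Zfp976 and Zfp975 shared a run of 44 identical bases, Zfp977 and Zfp975 one of 34 and Zfp977 and Zfp976 one of 31, whereas Zfp141 shared at most 8 with any of these genes. Zfp551 and Zfp606, which lie side by side, shared at most 7.

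Few Zfp genes were in LADs, and most of those in few libraries. The start site was in a LAD in at least 1 of the 14 libraries for 36 of the 208 genes (17.31%), beside 16.7% of all protein-coding genes and 23.17% of the 6781 on the same 5 chromosomes. In at least 7 libraries it was in a LAD for 3 genes (1.44%), Zfp804a, Zfp551 and Zfp606, beside 7.79% of all genes and 13.23% on the 5 chromosomes. In all 14 libraries it was in a LAD for 0 Zfp genes, beside 0.8296% of all genes, a share that comes to few genes among 208. Where a gene was ever in a LAD, the median was 2 libraries for the Zfp genes and 5 for all genes. In both mice of at least 1 time point, 11 Zfp genes were in LADs (5.288%), beside 9.93% of all genes. They were Zfp804a, Zfp551, Zfp606, Zfp788, Zfp141, Zfp977, Zfp976, Zfp975, Zfp936, Zfp808 and Zfp369. A share of genes ever in LADs near that of the genome thus came with a smaller share in many libraries or in both mice, and no test was made of these shares.

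**Figure D1:**
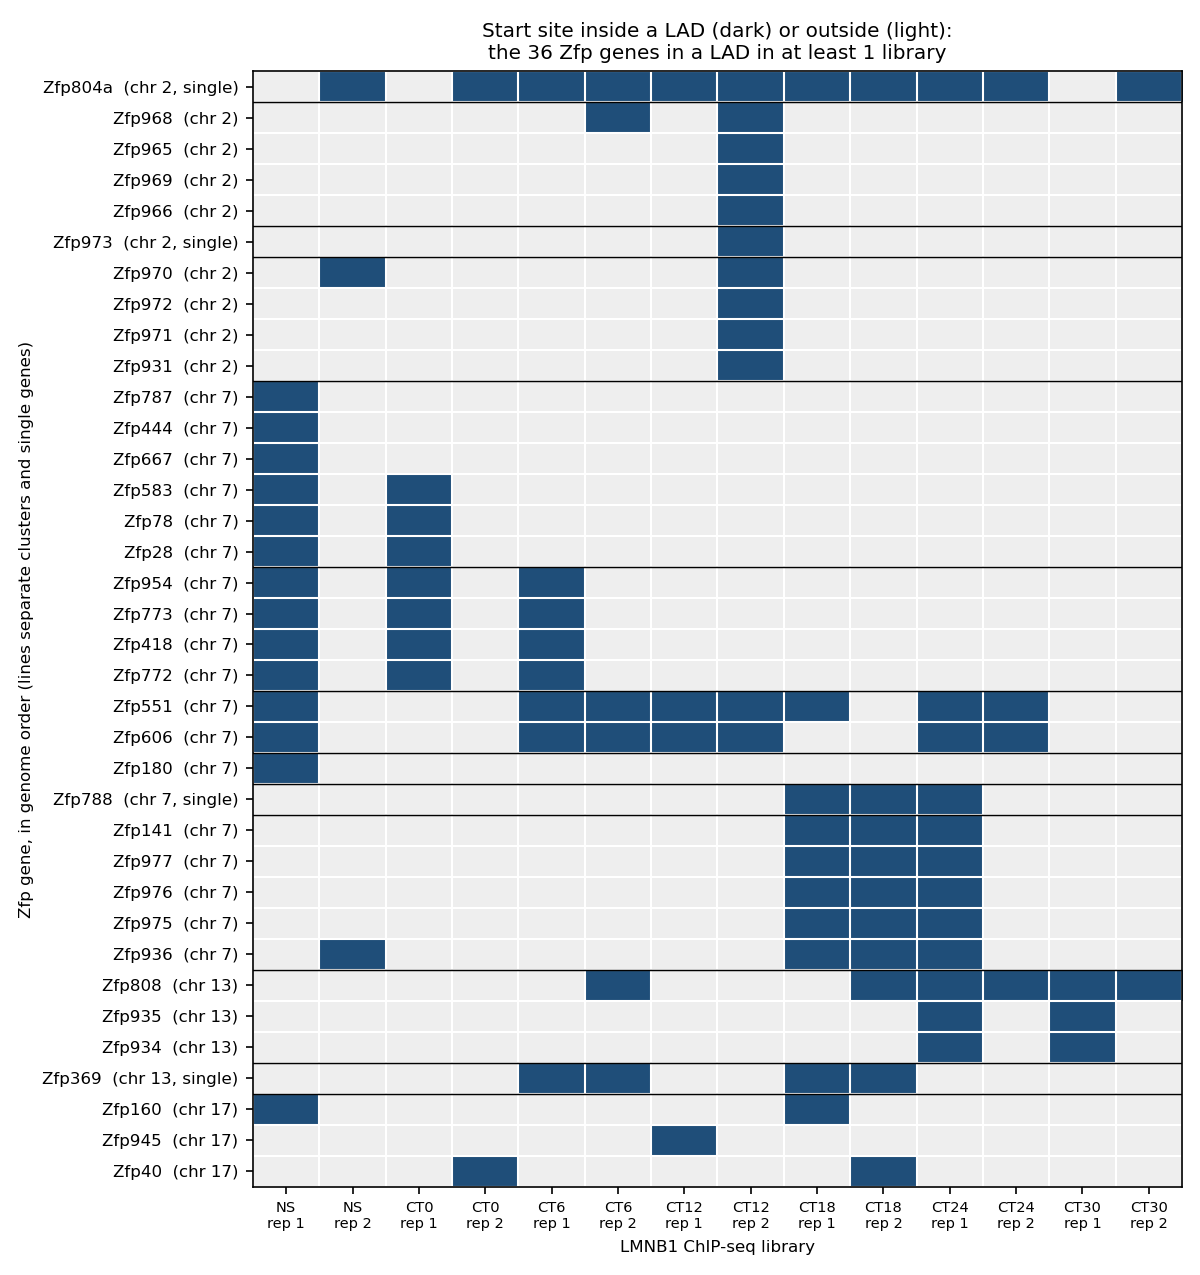
State of the 36 Zfp genes whose start site was in a LAD in at least 1 library. Each row is a gene in genome order and each column a library, dark for inside a LAD and light for outside, with lines between clusters and single genes. Zfp804a is dark in 11 columns, Zfp551 in 8 and Zfp606 in 7, and whole blocks of neighbouring genes change together in single columns, such as 9 chromosome 2 genes besides Zfp804a in CT12 replicate 2.

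Per library, between 2 and 14 of the 208 genes were in LADs. NS replicate 1 had 14 and NS replicate 2 had 3. CT0 had 7 and 2, CT6 had 8 and 6, CT12 had 4 and 12, CT18 had 10 and 10, CT24 had 12 and 4, and CT30 had 3 and 2, each as replicate 1 and replicate 2. At NS, CT12 and CT24 the mice of a time point differed by 8 or more in this count. At CT18 the counts were equal, with 8 genes in both mice and 2 more in each alone. As shares the time-point means ran from 1.202% ± 0.34 (SD, n = 2) at CT30 to 4.808% ± 0 (SD, n = 2) at CT18, with a pooled SD of 2.146 percentage points within time points. The mean over the 14 libraries was 3.331%, against 7.719% for all genes, 12.6% for genes on the 5 chromosomes and 6.72% for the 186 Zfp genes on other chromosomes.

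**Figure D2:**
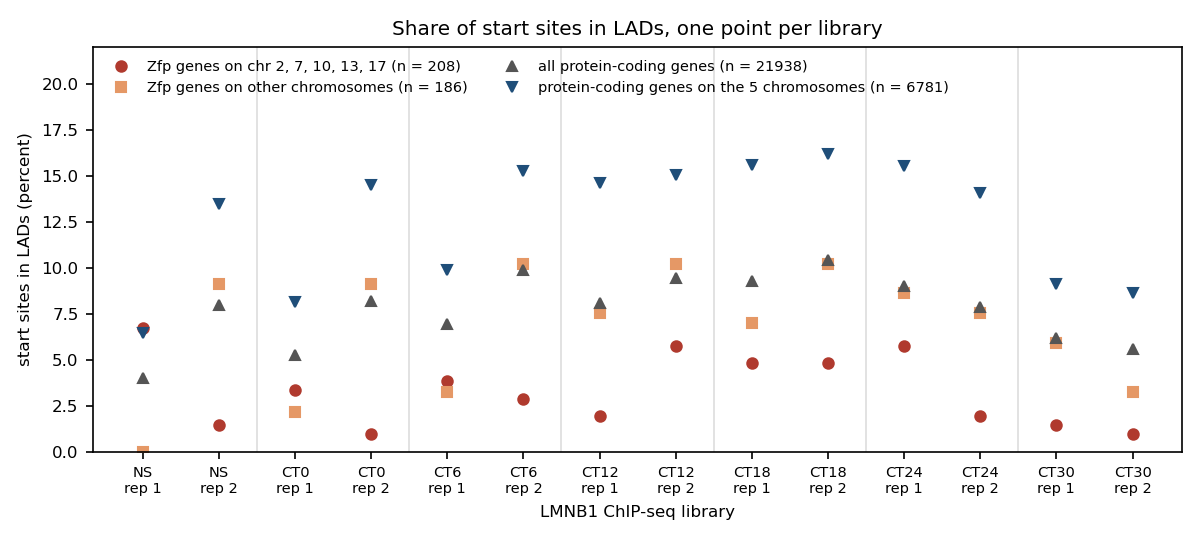
Percent of start sites in LADs in each LMNB1 library, with one point per library and gene group. The 208 Zfp genes (circles) range from 0.9615% to 6.731% and lie below all protein-coding genes on the 5 chromosomes (downward triangles) in every library except NS replicate 1, where they are at 6.731% and 6.444%.

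The libraries were not called at equal resolution, which bears on these counts. The starts of the LADs lie on a grid whose step, the bin size of the caller, was above 30 kb in 5 libraries, namely NS replicate 1 (61 kb), CT0 replicate 1 (47 kb), CT30 replicate 2 (46 kb), CT6 replicate 1 (35 kb) and CT30 replicate 1 (31 kb), and 4 to 19 kb in the other 9. The libraries held 86 to 341 LADs covering 335.3 to 663 Mb. Without the 5 libraries of large bins, 25 Zfp genes (12%) were ever in a LAD, beside 15.1% of all genes, so that the Zfp share was then the smaller. Bin size and time point go together at CT30, where both libraries have large bins, and there they cannot be told apart.

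By chromosome, 10 of 28 Zfp genes were ever in a LAD on chromosome 2, 19 of 92 on chromosome 7, 4 of 36 on chromosome 13, 3 of 46 on chromosome 17 and 0 of 6 on chromosome 10. For all protein-coding genes these shares were 24.58%, 31.44%, 18.62%, 15.44% and 15.96%. Chromosome 2 alone had the larger share for Zfp genes, 35.71%, and it fell on 1 library: 10 of the 28 were in LADs in CT12 replicate 2 and 0 to 2 in every other library. On chromosome 7 the time-point counts were 13 and 1 genes in the NS mice, 7 and 0 at CT0, 6 and 2 at CT6, 2 and 2 at CT12, 7 and 6 at CT18, 8 and 2 at CT24, and 0 and 0 at CT30. The same 6 genes were in LADs in both CT18 mice.

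Clusters and single genes differed little in the mean share in LADs. Averaged over the libraries, 3.397% of clustered and 3.084% of single genes were in LADs, a difference of 0.3128 percentage points beside an SD of 3.26 within time points. With at most 250 kb between start sites the difference was -3.516 percentage points, so its sign depends on the definition. Of the clustered genes 32 of 164 (19.51%) were ever in a LAD, and of the single genes 4 of 44 (9.091%), beside 16.7% of all genes. Clustered neighbours share LADs, so the 32 are not separate cases, and this difference was not tested. At the level of whole clusters, 9 of 19 had a member in a LAD in at least 1 library, and the other 10, with 90 genes, never did. For 5 clusters there was at least 1 library with all members in LADs.

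**Figure D3:**
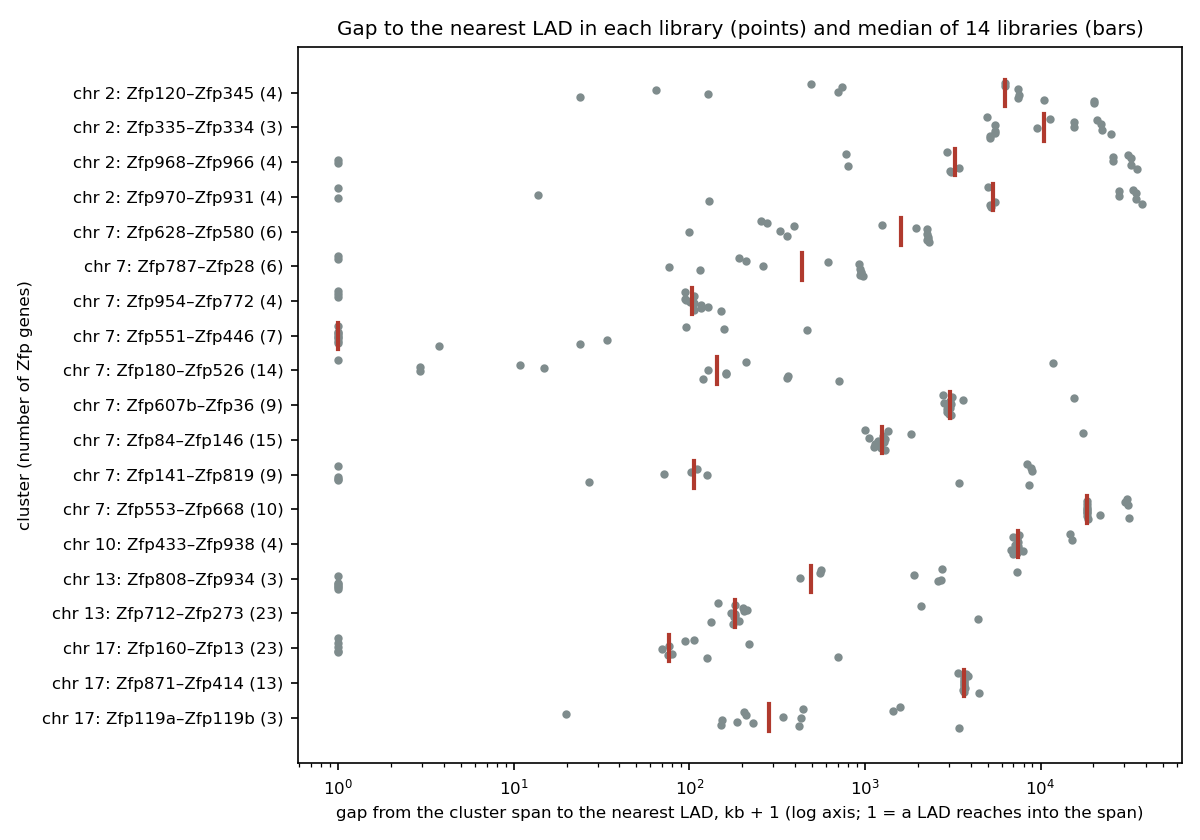
Gap in kb, on a log axis after adding 1, from the span between the first and last start site of each of the 19 clusters to the nearest LAD. Points are the 14 libraries, bars the medians, and a point at 1 means that a LAD reached into the span. For 9 clusters the median gap is at most 500 kb and for 10 it is at least 1 Mb.

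Many Zfp genes lay outside LADs but near one. Of the 208, 45 (21.63%) had a median distance over libraries above 0 and at most 500 kb, beside 6.181% of all genes and 9.099% on the 5 chromosomes. Of these 45, 40 were clustered genes, and neighbours share a LAD border, so they are not separate cases. By chromosome, 27 were on 7, 11 on 13, 7 on 17 and 0 on 2 and 10. The median distance from start site to nearest LAD was 1428 kb for the Zfp genes, 2443 kb for genes on the 5 chromosomes and 3931 kb for all genes. It differed by chromosome. The Zfp genes were nearer than all genes of the chromosome on 13 (660 beside 3481 kb) and 17 (1428 beside 2759 kb). On chromosome 7 the values were 1310 beside 1459 kb. On chromosomes 2 and 10 the Zfp genes were farther away (5518 beside 3458 kb and 7517 beside 2870 kb). Of the 19 clusters, 7 had, within 500 kb of one end, a stretch covered by LADs in at least 7 libraries. These stretches held 0 Zfp genes, which says little, since only 3 Zfp genes were in LADs in at least 7 libraries. In 5 of the stretches vomeronasal receptor genes were found. The LAD beside Zfp160–Zfp13 (chr17:17934001-20933000, 75.9 kb away) held 21 Vmn2r and 9 Vmn1r genes among 34. The LAD beside Zfp180–Zfp526 (chr7:21700001-23955000, 126.9 kb away) held 32 Vmn1r genes among 56, and that beside Zfp954–Zfp772 (chr7:7310001-9579000, 100 kb away) held 16 Vmn2r genes among 17. Beside Zfp141–Zfp819 (chr7:41672001-42396000, 109.7 kb away) all 4 genes were Vmn2r. On chromosome 13 the stretch before Zfp712–Zfp273 (181.2 kb away) held 4 predicted genes, and that before Zfp808–Zfp934 (424.9 kb away) held the placental cathepsins Ctsq, Ctsr, Cts6, Cts8, Cts7, Ctsm and Cts3 and 2 predicted genes. The seventh, Zfp119a–Zfp119b on chromosome 17, had such a stretch at 228.9 kb with 1 Vmn2r gene and the sialyltransferase gene St6gal2.

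At the cluster Zfp551–Zfp446 on chromosome 7 (chr7:12422751-12977848), the border of a LAD lay at different places among the first members. This cluster ends beside Trim28, the gene of the KRAB corepressor, whose start at chr7:12999114 was never in a LAD and had a median distance of 472.1 kb to one. Zfp606, a KRAB protein with 13 fingers, was in a LAD in both mice at CT6, CT12 and CT24 and in NS replicate 1, and outside in both mice at CT0, CT18 and CT30. Relative to the Zfp606 start, the last LAD that began before it ended 211.3 and 522.3 kb short of it at CT0. In CT0 replicate 2 this was a LAD at chr7:11600001-11956000, which began further on than the LAD of any other library. The LAD reached 226.7 and 281.7 kb past the Zfp606 start at CT6 and 111.7 and 231.7 kb past it at CT12. At CT18 it ended 14.3 and 88.3 kb short, at CT24 it reached 177.7 and 247.7 kb past, and at CT30 it ended 78.3 and 58.3 kb short. The mice of each of these time points were on the same side of the start site, while the NS mice were not, at 148.7 kb past and 150.3 kb short. In both mice the border was thus past Zfp606 at CT6, CT12 and CT24. The replicates differed by 20 to 120 kb at every CT but CT0, where they differed by 311 kb between LADs of unlike start. Zfp551, also a KRAB protein with 13 fingers, lies 55.5 kb before Zfp606 and was in a LAD in the same libraries and in CT18 replicate 1. It was only 22.8 kb outside in CT30 replicate 1 and 2.8 kb outside in CT30 replicate 2, less than the 31 and 46 kb bins of those libraries. Between Zfp606 (7 libraries) and its neighbour Zfp329 (0 libraries), 340.6 kb away, lie the receptor genes Vmn2r53, Vmn2r54, Vmn2r55 and Vmn2r56, in LADs in 6, 5, 4 and 1 libraries. Zfp110, Zfp128, Zfp324 and Zfp446 beyond them were never in a LAD.

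At Zfp141–Zfp819 (chr7:42505740-43607169) a LAD covered the first members in both mice at CT18. Zfp141, Zfp977, Zfp976 and Zfp975, all KRAB proteins with 10 to 18 fingers, were inside it in both CT18 mice and in CT24 replicate 1, together with the single gene Zfp788 ahead of the cluster, a KRAB protein with 23 fingers. Zfp936, an 85.01% identical copy of Zfp977 in coding sequence, was inside in the same libraries and in NS replicate 2, though RefSeq places its start 63361 bp away. In the CT18 mice 1 LAD ran from before Zfp788 to 776.3 and 766.3 kb past Zfp141. In CT24 replicate 2 the nearest LAD ended 25.7 kb short of Zfp141, and in NS replicate 2, CT0 replicate 2, CT6 replicate 2 and both CT12 mice 70.7 to 133.7 kb short. In the remaining libraries, which are the 5 with bins above 30 kb, no LAD was within 4552.3 kb of Zfp141. The mice of CT0, CT6 and NS thus differed in whether a LAD was there at all, and the part of bin size in this was not tested. Zfp715, 199.1 kb after Zfp936, and Zfp658, Zfp719 and Zfp819 were never in a LAD, which makes Zfp936 and Zfp715 (4 against 0 libraries) the neighbours in this cluster that differed most.

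**Figure D4:**
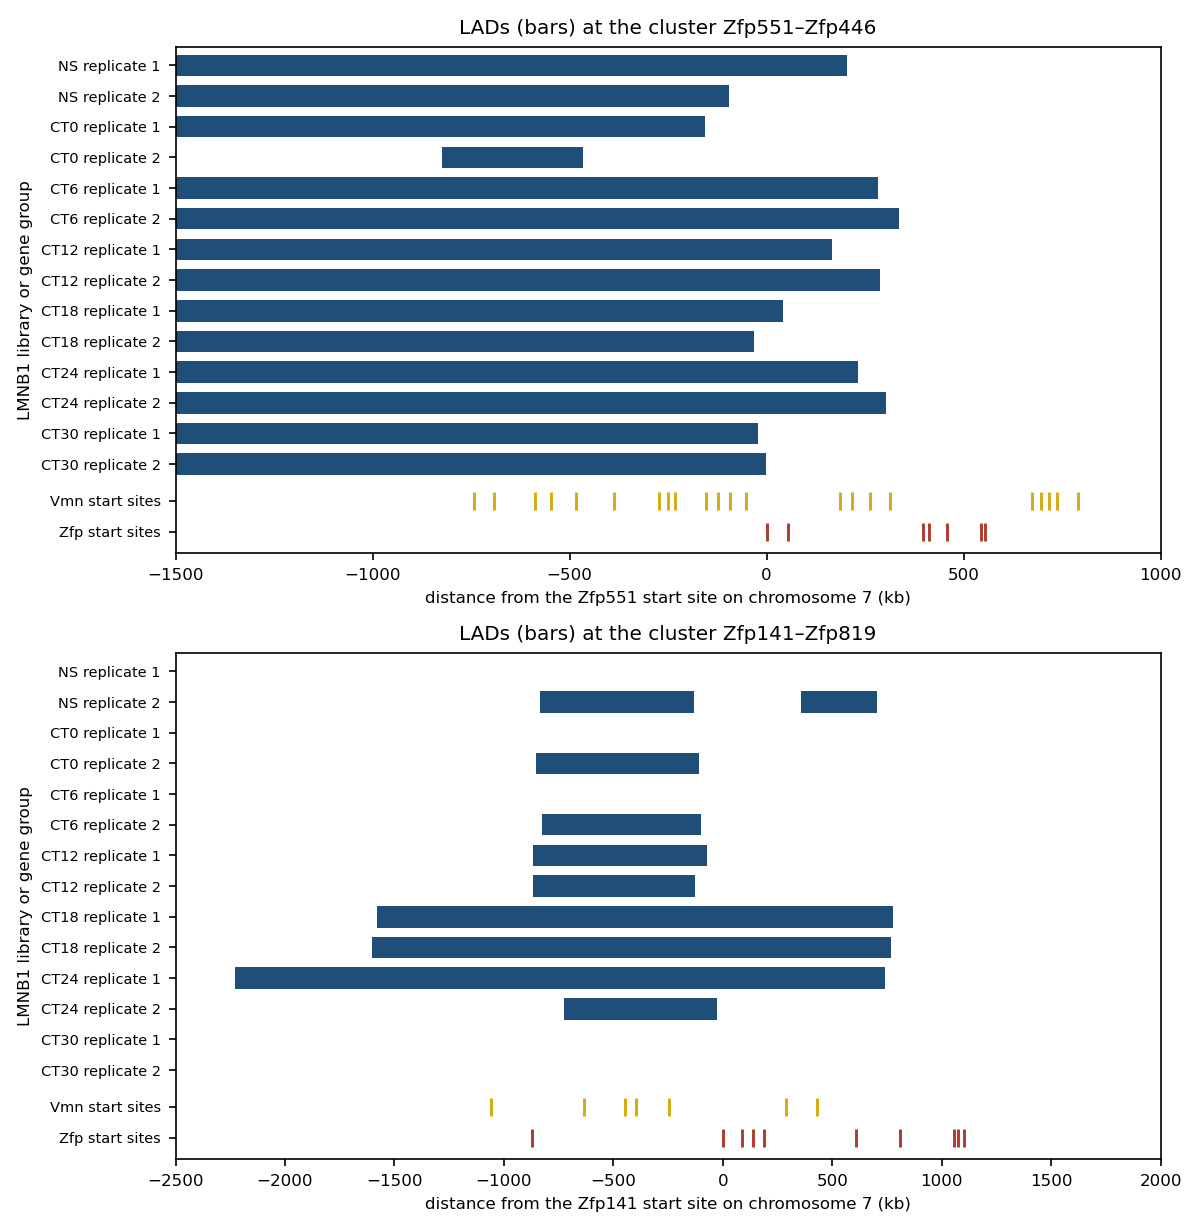
LADs (bars) of the 14 libraries around 2 clusters on chromosome 7, as distance in kb from the start site of the first member, with start sites of Zfp genes and of vomeronasal receptor (Vmn) genes below. At Zfp551–Zfp446 (top) the bars end past Zfp606 in both mice at CT6, CT12 and CT24, and short of it in both at CT0, CT18 and CT30. At Zfp141–Zfp819 (bottom) both CT18 mice and CT24 replicate 1 have a bar over Zfp141, and 5 libraries have none in the window.

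A pair of neighbouring clusters nearer the chromosome 7 start was covered as blocks in 1 to 3 libraries. Zfp954, Zfp773, Zfp418 and Zfp772 (chr7:7121488-7209998) were all in LADs in NS replicate 1, CT0 replicate 1 and CT6 replicate 1, and all outside in the other 11 libraries, where the nearest LAD began 94 to 150 kb after Zfp772. Those 3 libraries have bins of 61, 47 and 35 kb, while their partner mice have bins of 4, 4 and 11 kb. In the CT30 mice, with bins of 31 and 46 kb, these genes were outside LADs, and the part of bin size was not tested. In the same NS library all 6 genes of Zfp787–Zfp28 (chr7:6155997-6383295) were in the same LAD of 4.28 Mb, and in CT0 replicate 1 Zfp583, Zfp78 and Zfp28 were. Zfp667 was then 11.4 kb outside and Zfp583, 44.7 kb on, 33.3 kb inside, both less than the 47 kb bin. Each of these 10 genes was thus in a LAD in 1 to 3 libraries and never in both mice of a time point.

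A further 5 clusters of chromosome 7 were outside LADs but for 1 gene. In Zfp180–Zfp526 (14 genes, chr7:24081924-25221425) Zfp180 was 13.1 kb inside a LAD in NS replicate 1, and Zfp112, 30.39 kb on, and the other 12 were never inside. The LAD of the Vmn1r genes stopped 1.9 kb before Zfp180 in CT6 replicate 1 and CT12 replicate 2 and up to 713.9 kb before it in the other libraries, except CT0 replicate 1, which had no LAD within 11814.9 kb. Zfp84–Zfp146 (15 genes), Zfp607b–Zfp36 (9), Zfp553–Zfp668 (10) and Zfp628–Zfp580 (6) were never in LADs, with median gaps of 1247, 3036, 18471 and 1597 kb. Among them is Zfp568, a KRAB repressor of a placental Igf2 promoter, whose nearest LAD was 1187 kb away in the closest library. Zfp36 (tristetraprolin), which destabilizes cytokine mRNAs and has fingers of another type than C2H2, was 2790.7 kb from a LAD at the closest.

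On chromosome 2, LADs over the distal clusters were seen almost only in CT12 replicate 2. Zfp968, Zfp965, Zfp969 and Zfp966 (chr2:175372436-175931100), the single gene Zfp973, and Zfp970, Zfp972, Zfp971 and Zfp931 (chr2:177464733-178078476) were all inside 1 of 4 LADs of 0.38 to 1.01 Mb in this library. Beyond it, Zfp968 was inside in CT6 replicate 2 and Zfp970 in NS replicate 2. In CT12 replicate 1 the nearest LAD was 25937.4 kb from Zfp968, so the mice of this time point differed. These genes are close copies: the coding sequences of Zfp969 and Zfp966 were identical (100%), as were those of Zfp965 and Zfp973 (100%), and reads from such copies may map to any of them. Zfp120–Zfp345 (4 genes) and Zfp335–Zfp334 (3 genes) were never in a LAD, though the former came within 22.7 kb of one.

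The single gene Zfp804a (chr2:82053222-82259879, plus strand) was the Zfp gene most often in LADs. It encodes a protein with 1 C2H2 finger and no KRAB match, and its human counterpart is known from genetic studies of schizophrenia. It was inside in 11 libraries, 672.8 to 1417.2 kb from the nearest border, and outside in NS replicate 1, CT0 replicate 1 and CT30 replicate 1, whose nearest LADs were 12374.8, 3392.8 and 4591.8 kb away. All 3 are among the libraries with bins above 30 kb. Of its RefSeq promoter 79.33% was G or C, against a median of 52.67% over all promoters.

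On chromosome 13, Zfp808, a KRAB protein with 22 fingers, was in LADs in both mice at the last time points. Its start (chr13:62129886) was inside in both mice at CT24 and CT30, in CT6 replicate 2 and in CT18 replicate 2, and outside in both mice at NS, CT0 and CT12. Inside, it lay 292.1 to 520.1 kb from the border. Zfp935 and Zfp934, 428.6 kb further on, were inside in CT24 replicate 1 and CT30 replicate 1. Zfp934 was then 78.8 and 17.8 kb inside, and in the other CT24 and CT30 mice 21.2 and 149.2 kb outside. RefSeq places the start of Zfp935 91699 bp away, so its state rests on the annotation. Zfp369, a single gene for a neurotrophin receptor interacting factor (chr13:65278814), was inside in both mice at CT6 and at CT18 and outside in the other 10 libraries. In CT6 replicate 2 it was inside by 4.8 kb, less than the 11 kb bin, and in 6 of the 10 it was outside by 11.2 to 100.2 kb. The 23 genes of Zfp712–Zfp273 (chr13:67061170-67813740) were never in a LAD. The nearest border stood 132.2 to 211.2 kb before Zfp712 in 12 libraries. This cluster holds Rsl1, a KRAB zinc finger gene that represses sex-limited liver genes, also never in a LAD and at a median distance of 293.2 kb.

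On chromosome 17, the 23 genes of Zfp160–Zfp13 (chr17:21008903-23599487) began beside the receptor LAD, and 20 of them were never inside one. Zfp160 was inside in NS replicate 1 and CT18 replicate 1, and outside by 63.9 to 703.9 kb in the other 12, and its neighbour Zfp677, 374.8 kb on, was never inside. Zfp945 was inside in CT12 replicate 1, and Zfp40 in CT0 replicate 2 and CT18 replicate 2, in small LADs of 0.42 to 0.558 Mb that also held the receptor gene Vmn2r113. Zfp871–Zfp414 (13 genes) lay a median of 3662 kb away and Zfp119a–Zfp119b (3 genes) 283.9 kb, both never inside. Zfp57, which keeps methylation at imprinted control regions, was never in a LAD but came within 25.8 kb of one in NS replicate 1, and had a median distance of 290.3 kb. On chromosome 10 the cluster Zfp433–Zfp938 (4 genes) was a median of 7404 kb from LADs.

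Other well known genes were never in a LAD, as was so for 83.35% of all genes. Beside a median distance of 3931 kb for all genes, the median distances were 1299 kb for Zfp143, an activator that binds many promoters, 2813 kb for Zfp106, an RNA-binding protein, 6873 kb for Zfp64, 5681 kb for Zfp217, whose human counterpart is amplified in breast tumors, 1448 kb for Zfp365, 6151 kb for Zfp366 and 1834 kb for Zfp710. The closest approach among these was 224.9 kb, for Zfp217 in NS replicate 1, and the same gene was up to 30432.1 kb away in CT24 replicate 2.

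Whether a gene's state followed circadian time was asked of each gene in the 12 CT libraries. These libraries can be divided into 6 pairs in 10395 ways, and an exact permutation test asked how often a division gives pairs as alike in state as the mice of each time point. After Benjamini-Hochberg adjustment over 21938 genes, 0 genes passed an adjusted p of 0.05 (0% of all genes) and 0 of the 208 Zfp genes did. The smallest p was 0.02165, with an adjusted p of 1. An adjusted p of 0.05 would have needed 9500 genes at that p, and the state of only 3180 genes varied, so this test could not have passed any gene. At an unadjusted p under 0.05 there were 34 genes (0.155%) and, among the Zfp genes, 2 (0.9615%). They were Zfp606, with an exact permutation p of 0.02165, and Zfp369, with an exact permutation p of 0.0303. With NS as a seventh time point the exact permutation p of Zfp606 was 0.08159, and with mostly covered gene bodies in place of start sites Zfp369 was not under 0.05. In CT18 replicate 1 Zfp606 was outside by 14.3 kb, less than the 19 kb bin of that library. Next came Zfp551 at p = 0.1515 and Zfp936, Zfp788, Zfp141, Zfp977, Zfp976 and Zfp975 at p = 0.2727 by the same exact permutation test, then Zfp808 at p = 0.4113. All Zfp genes of chromosomes 2, 10 and 17 had p = 1 in this exact permutation test. At Zfp788, Zfp141, Zfp977, Zfp976, Zfp975 and Zfp936 only the mice of CT24 differed in state among the CTs. These genes lay under 1 shared LAD, so leaving out CT24 replicate 2 removes that difference for all of them at once.

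A second measure keeps the position of the border. The share of the 1 Mb window around each start site that LADs covered had an unadjusted p under 0.05 in 353 genes (1.61%) and in 14 Zfp genes (6.731%), and again 0 genes passed after adjustment. This share varied among the CT libraries in 6177 genes and 103 Zfp genes. The 14 genes come from few places, since neighbours share a border: all 7 genes of Zfp551–Zfp446, Zfp141, Zfp977, Zfp976 and Zfp975, the single genes Zfp541 and Zfp296 on chromosome 7, and Zfp953 on chromosome 13. For Zfp606 the covered share was 28.87% and 0% at CT0, 72.67% and 78.17% at CT6, 61.17% and 73.17% at CT12, 48.57% and 41.17% at CT18, 67.77% and 74.77% at CT24, and 42.17% and 44.17% at CT30. These shares restate the distances from the Zfp606 start to the LAD border given above, so they are no second support for them. The exact permutation p was 0.002405 before adjustment and 1 after. For Zfp141 the window was covered fully in both CT18 mice and CT24 replicate 1, for 47.43% in CT24 replicate 2, and for 0% to 42.93% at the other CTs, with an exact permutation p of 0.02338. For Zfp369, whose state gave one of the smallest p-values, the window gave an exact permutation p of 0.1261, as the CT6 mice were at 100% and 50.48% and the CT18 mice at 58.98% and 100%.

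Genes that were ever in a LAD resembled the others in the number of fingers and differed somewhat in other features. Both groups had a median of 11 fingers. The KRAB pattern was matched by 26 of the 36 genes (72.22%) and by 85 of the 172 never in a LAD (49.42%). Of the 36, 32 were clustered, and clustered genes matched it more often than single genes (60.98% against 25%). Their promoters, of which 32 and 155 had a RefSeq entry, had a median GC content of 50.83% and 53.67%, and a ratio of observed to expected CG of 0.4085 and 0.5756, beside 0.3801 for all RefSeq promoters. The first group holds Zfp968–Zfp966 and Zfp970–Zfp931, close copies in LADs almost only in CT12 replicate 2, with median ratios of 0.2855 and 0.2026. Zfp787–Zfp28 and Zfp954–Zfp772, also in that group, had 0.7294 and 0.5076. The differences in GC and CG thus rest in part on those few copies. The KRAB pattern was matched by 4 of 4 genes of Zfp968–Zfp966 and 3 of 4 of Zfp970–Zfp931. It was matched by 3 of 6 of Zfp787–Zfp28 and 3 of 4 of Zfp954–Zfp772. All these values are descriptions over genes that share clusters and ancestry, and no test was made.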

How the data were processed

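LMNB1 ChIP-seq LADs of 14 livers were used as deposited, 2 mice per time point. Per the labels and the study's methods, the authors mapped reads to mm10 with Bowtie (version 2.25.0 in the submitters' processing notes) at default parameters, removed duplicates with Picard, brought ChIP and input to the same depth on each chromosome by down-sampling, and called LADs per mouse with EDD, with the bin size and gap penalty of each library set from repeated runs on it. The deposited BED files hold chromosome, start and end without scores, counts or depth, so precision comes only from the spread between the 2 mice. The labels list a single input for each time point beside its 2 LMNB1 libraries. If both mice were called against it, the control was shared within a time point and differed between time points. The part of the input in the likeness of the 2 mice was not tested. Each library was called at its own bin size, read here as the largest number of kb that divides LAD starts on whole kb. The inputs and RNA-seq were not analysed here.

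Start sites were those of GENCODE vM21 (GRCm38, the same assembly as mm10). Clusters, lists, the share of genes in LADs, gaps to LADs and LAD borders are descriptions. States were compared between CTs with an exact permutation test, adjusted over all 21938 protein-coding genes. Zinc fingers and the KRAB pattern were counted in the longest annotated coding sequence of each gene, and 187 of 208 genes matched a RefSeq promoter (GRCm38.p6). Python 3.11.15 with NumPy 2.4.6, pandas 2.3.3, Biopython 1.88 and edlib was used. The members, gene lists and alternatives were chosen with earlier results of these data known. Genes were named by a rule: every cluster, single genes ever in a LAD, the 3 smallest p per chromosome, the neighbours in each cluster that differed most, 11 well known genes, and KRAB cofactors in LADs. Vomeronasal and cathepsin neighbours, and genes at an unadjusted p under 0.05 in an alternative, were named after their values were seen. Alternatives were LAD size, gene body, window coverage, replicate block, NS, other start sites, cluster definition and each library left out.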

Additional observations from a re-analysis of the deposited data

How the results depend on the processing

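The number of genes that differed between CTs at an adjusted p of 0.05 was 0 in each of 18 alternatives. For those that use a state this says nothing of stability, since the state test could not reach that adjusted p. Window coverage is not a state, and this limit was not shown for it. It varied in 6177 genes, its smallest exact permutation p was 0.001443, and 0 genes passed. The number of Zfp genes at an unadjusted p under 0.05, 2 as reported, was 14 with window coverage, 1 with NS as a seventh time point (Zfp369), 1 with mostly covered gene bodies (Zfp606), and 2 to 8 without 1 library. The upper end of that range came without CT24 replicate 2. Among the CTs only the CT24 mice differed at Zfp788 and at Zfp141 to Zfp936, genes under 1 shared LAD, so these are not separate results. Over all genes this number was 34, and 36 to 117 without 1 library, highest without CT6 replicate 2. Replicate numbers were not taken to pair the mice, as only 3 of 15 pairs of CTs had a correlation of deviations over 0.1 (-0.107 to 0.345). Of the 6 pairs with NS, 4 did (-0.0987 to 0.453), and replicate 1 of NS, CT0 and CT6 shares large bins. Replicate numbers are those of the sample titles, and the deposited names number some libraries otherwise. NS replicate 2, CT0 replicate 2 and CT12 replicate 1, with bins of 4, 4 and 5 kb, carry the number 3 there. Pairing by those numbers was not tested. With the replicate block 0 Zfp genes and 0 genes had p under 0.05, as the smallest p this design gave was 0.05.

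The mean share of Zfp genes in LADs was 2.885% with LADs of at least 1 Mb, 3.537% with gene bodies, 1.374% in the intersect and 5.288% in the union of the mice, and 3.07% to 3.513% without 1 library, each within 1 SD of 3.331%. The clustered minus single difference was -3.516 percentage points at 250 kb, 0.8078 at 1 Mb, -2.556 with clusters of at least 5, -0.2534 with LADs of at least 1 Mb, -0.04355 with gene bodies, and -0.3198 to 0.533 without 1 library, lowest without NS replicate 1. Zfp genes ever in a LAD were 36 (17.3% beside 16.7% of all genes), 25 without large bins (12% beside 15.1%), 32 in the 12 CT libraries (15.4% beside 16.4%), 27 with LADs of at least 1 Mb (13% beside 14.4%), and 29 to 36 without 1 library, lowest without CT12 replicate 2 (13.9% beside 16.5%). Whether the Zfp share was above or below that of all genes thus changed. The clusters with a median gap within 500 kb were 7 to 9. Of 97 cases of a Zfp start site in a LAD, 5 lay within 1 bin of the border. Start sites just outside a LAD were not counted here. Depth is unknown and limits what can be said of single borders. RefSeq starts, LADs ever counted without large bins or NS, and leaving out libraries for the last 2 counts were added after seeing the data.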

Other observations

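Other zinc finger families are given as counts, with no test between them. Of the Zbtb genes, which pair zinc fingers with a BTB domain, 0 of 41 were in a LAD in any library, and of the Zkscan genes, which carry KRAB and SCAN domains, 1 of 11 was. Of the 19 Zscan genes, which carry a SCAN domain, 9 were in a LAD in at least 1 library, 8 in at least 7 and 1 in all 14, and their median distance to a LAD was 370.8 kb. All 9 are among the 16 on the 5 chromosomes. The same shares for all protein-coding genes were 16.7% and 7.79%. The Zscan4 genes stand in tandem on chromosome 7, so the Zscan genes are not independent. Among them are Zscan4-ps1, Zscan4-ps2 and Zscan4-ps3, which the annotation lists as protein-coding though their symbols are those of pseudogenes.

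Of 17 genes for proteins that work with KRAB zinc finger proteins, 2 were ever in a LAD. Smarcad1, a chromatin remodeler, was inside in 5 libraries, among them both CT18 mice, and Hdac2, a histone deacetylase, in CT0 replicate 1 and CT6 replicate 1. Of 171 other genes that lie within the Zfp clusters, 36 were ever in a LAD: 10 of 13 Vmn2r genes, 3 of 4 Vmn1r genes and 19 of 49 predicted Gm or Rik genes, but 0 of 4 olfactory receptor genes. Beside Zfp genes in the same clusters, 32 of 164, and 16.7% of all genes, more of the vomeronasal receptor genes were ever in a LAD, a count that was not tested. Where ever in a LAD, the median was 3 libraries for the Vmn2r genes and 1 for the Vmn1r genes. In at least 7 libraries 0 of either were in a LAD. Some are neighbours that share LADs, such as Vmn2r53 and Vmn2r54.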
